A study of Mus musculus with 8 samples.

Results

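Aortic smooth muscle cells that had lost Tgfbr2 were compared with cells that kept it, before any high fat diet was given. The comparison took the KO ND library (1127 cells) against the Apoe ND library (1415 cells), chosen by the genotype tag in the cell names of the ND table, and used 2542 of the 13056 cells of the series. KO ND cells came from Apoe-deficient mice whose smooth muscle also lacks Tgfbr2 (genotype label TGFBetaRiSMC-Apoe) and that ate the diet labelled ND. Apoe ND cells came from Apoe-deficient mice on the same diet, so both sides share the Apoe deficiency. The 6 other libraries, used further on, hold the same genotypes after 1, 2 or 4 months of high fat diet (KO 1M, 2M and 4M against Apoe 1M, 2M and 4M). Per the labels, ascending aortas were digested, smooth muscle cells were sorted by their GFP, and droplet single-cell libraries were made on the Chromium system of 10x Genomics. The sources used here do not give what drives the deletion, nor the number, age and sex of the mice behind a library. With 1 library per side, nothing on ND could be tested across replicates, and each difference there is between 2 libraries.

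Tgfbr2 encodes the type II receptor for transforming growth factor beta (TGF-beta). Once bound by ligand it activates the type I receptor, which phosphorylates Smad2 and Smad3, and these carry the signal to the nucleus. In arterial smooth muscle this pathway is known for driving elastin, collagen and contractile genes, and mutations in its receptors cause inherited aortic aneurysm in humans.

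The KO ND library held 12337547 unique molecular identifiers (UMIs, each counting 1 captured transcript) and the Apoe ND library 13362860. The median cell had 10398 UMIs and 3250 genes in KO ND, against 9392 UMIs and 3131 genes in Apoe ND. Listed transcripts of the mitochondrial genome took 2.49% of UMIs in KO ND and 2.13% in Apoe ND, and the 10 most abundant genes took 11.8% and 9.65%. The libraries shared 1 cell barcode. All 8 smooth muscle markers were listed in both, with summed levels of 33220 UMIs per 1000000 UMIs (CPM) in KO ND and 25310 CPM in Apoe ND. The markers of Schwann cells (5), lymphocytes (6) and red cells (5) have no values in the ND table. Of 9 macrophage markers 1, Cd68, was listed in KO ND, at 6.32 CPM, and at 0 in Apoe ND. Of 8 endothelial markers 1 was listed in each library (30.2 CPM in KO ND, 39.96 CPM in Apoe ND), and of 7 fibroblast markers 3 in each (101 CPM in KO ND, 90.3 CPM in Apoe ND). At most 1 marker was listed for each endothelial, immune or glial type. Single cells of those types, and doublets with them, could therefore not be looked for by several markers. All 6 pericyte markers were listed in both libraries, with summed levels of 516 CPM in KO ND and 689 CPM in Apoe ND. Pericytes were not looked for cell by cell. The targeted gene could not be checked in KO ND: the ND table has no Tgfbr2 values, and in the table that lists it Apoe ND stood at 43.6 CPM (95% interval 40.1 to 47.2), with a UMI in 32.5% of cells.

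Of 9608 genes listed above 0 in both libraries, 83 (0.864%) were higher in KO ND by at least 1 on the log2 scale and 150 (1.56%) were lower. The log2 ratio was taken on CPM, so 1 is a 2-fold difference, and the intervals given with it are exact conditional binomial 95% intervals that cover counting error only. The median ratio of all genes was -0.05, with 43.2% above 0 and 56.8% below 0, so counts of a list above or below 0 are to be read against those shares. Counts of list members past 1 are to be read against 0.864% of all genes higher and 1.56% lower. For scale, KO 1M differed from KO ND by that much in 63 of 9549 genes (0.660%) and Apoe 1M from Apoe ND in 31 of 9537 (0.325%), pairs of libraries of the same genotype that also differ in diet. A gene seen in under 5% of a library's cells is listed at 0 there, and no ratio is given for it; 469 genes were listed in KO ND alone and 290 in Apoe ND alone.

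**Figure D1:**
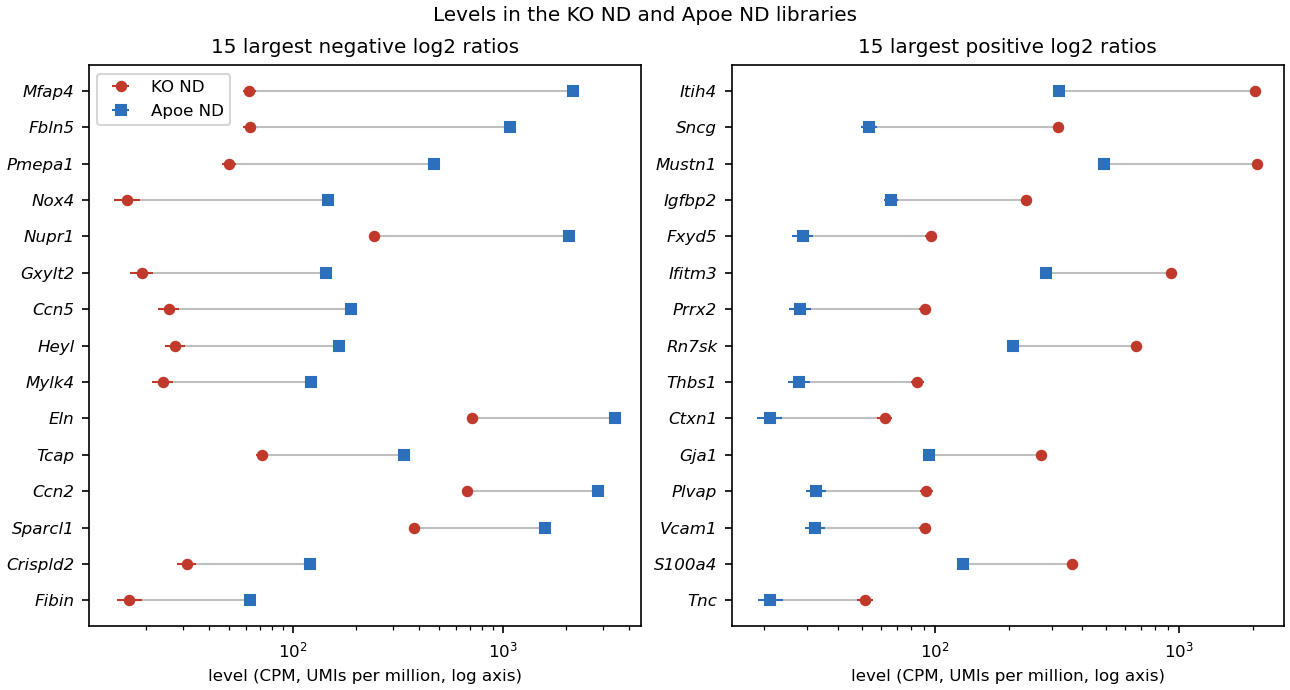
Levels (UMIs per 1000000, log axis) of the 15 genes with the most negative and the 15 with the most positive log2 ratio between the KO ND and Apoe ND libraries, among genes of at least 50 CPM in the higher library. Circles are KO ND, squares Apoe ND, bars exact Poisson 95% intervals; Mfap4 stood at 62.1 CPM in KO ND and 2168 CPM in Apoe ND, and Itih4 at 2039 CPM and 322 CPM.

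Genes of the elastic fibre held the most negative ratios of the named genes and the lowest median of the 32 gene lists. Mfap4, a glycoprotein that binds elastin and fibrillin microfibrils (chromosome 11, 61485431 to 61488900, plus strand, GRCm38), stood at 62.1 CPM (57.8 to 66.6) in KO ND and 2168 CPM (2144 to 2194) in Apoe ND. Its log2 ratio was -5.13 (-5.23 to -5.02), or 34.9-fold lower in KO ND. Fbln5, fibulin 5, which brings elastin onto microfibrils (chromosome 12, 101746565 to 101819055, minus strand), stood at 62.4 CPM (58.1 to 67.0) in KO ND and 1080 CPM (1063 to 1098) in Apoe ND, with a ratio of -4.11. Eln, elastin itself (chromosome 5, 134702593 to 134747323, minus strand), stood at 714 CPM in KO ND and 3436 CPM in Apoe ND, with a ratio of -2.27 (-2.30 to -2.23). The intervals of the 2 libraries were far apart for all 3 genes.

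Of 22 genes on the elastic fibre list 16 were listed in both libraries, and 6 of these were lower by at least 1, with 0 higher, against 1.56% and 0.864% of all genes. The median ratio of the 16 was -0.78, and 14 lay below 0. Beside Mfap4, Fbln5 and Eln the 6 were Ltbp2, a latent TGF-beta binding protein that binds fibulin 5 (8.19 CPM in KO ND, 40.1 CPM in Apoe ND, ratio -2.29), Mfap5, a microfibril protein (308 CPM and 864 CPM, -1.49), and Lox, the enzyme that crosslinks elastin (109 CPM and 302 CPM, -1.46). Ltbp4, which with fibulin 5 guides elastin assembly, stood at 225 CPM in KO ND and 418 CPM in Apoe ND, a ratio of -0.89. Fibrillin 1 (Fbn1), the backbone of the microfibril, stood at 106 CPM in KO ND and 123 CPM in Apoe ND, a ratio of -0.22. Efemp2, fibulin 4, which recruits lysyl oxidase to elastin, was above 0, at 150 CPM in KO ND and 117 CPM in Apoe ND, a ratio of 0.36. Loxl1, a second crosslinking enzyme of elastic fibres, had a ratio of -0.11.

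Among TGF-beta ligands, receptors and Smads most differences lay under 1. Of 26 genes listed in both, 21 lay below 0, 2 were lower by at least 1 and 0 were higher, with a median of -0.28. Skil, which encodes the Smad corepressor SnoN, stood at 102 CPM in KO ND and 337 CPM in Apoe ND (-1.72), and Ltbp3, which anchors latent TGF-beta in the matrix, at 49.0 CPM and 102 CPM (-1.05). Smad7, the inhibitory Smad induced by the pathway, stood at 167 CPM in KO ND and 299 CPM in Apoe ND (-0.84). The ligand genes Tgfb1, Tgfb2 and Tgfb3 had ratios of -0.18, -0.28 and 0.50. The type I receptor Tgfbr1 stood at 60.6 CPM in KO ND and 98.2 CPM in Apoe ND (-0.70), and Smad2, Smad3 and Smad4 had ratios of -0.36, 0.73 and -0.15. The receptor gene Acvr2b stood at 6.16 CPM in KO ND and 11.9 CPM in Apoe ND (-0.95). Acvr1b was listed at 0 in KO ND and at 7.63 CPM in Apoe ND.

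Known targets of the pathway showed the lower levels more widely. Of 24 targets listed in both libraries 10 were lower by at least 1 and 0 higher, with a median of -0.74. The list was chosen with earlier results of these data known, so its direction is not independent evidence. Pmepa1, a feedback inhibitor that sequesters receptor Smads, stood at 49.8 CPM in KO ND and 472 CPM in Apoe ND (-3.24). Nox4, an NADPH oxidase that makes hydrogen peroxide, stood at 16.3 CPM in KO ND and 148 CPM in Apoe ND (-3.19). Ccn2, connective tissue growth factor, stood at 676 CPM in KO ND and 2853 CPM in Apoe ND (-2.08). Also among the 10 were Skil, Ltbp2, Ldlrad4 (a binder of receptor Smads, -1.91), Bhlhe40 (-1.6), the integrin subunit Itgb5 (-1.35) and Ptprz1 (-1.10). Targets above 0 included Tagln (0.61), the muscle LIM-domain gene Lmcd1 (0.33), Inhba (0.24) and Tgfb1i1 (0.23).

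Neighbouring pathways had fewer members past 1 than the target list. Of all genes, 2.43% passed 1 in either direction. Of 13 genes of the BMP and Id list listed in both, Chrd, which encodes the BMP antagonist chordin, was lower (5.19 CPM in KO ND, 13.1 CPM in Apoe ND, -1.34) and Fst, follistatin, was higher (22.9 CPM and 10.5 CPM, 1.12). Bmp3, Bmp4 and Fstl3 were listed at 0 in KO ND, and stood at 45.3, 21.8 and 6.51 CPM in Apoe ND. Of all genes listed in Apoe ND, 2.93% were at 0 in KO ND. Id3, a BMP-induced inhibitor of basic helix-loop-helix factors, stood at 2792 CPM in KO ND and 4646 CPM in Apoe ND (-0.73). Of 12 Notch genes listed in both, Heyl, a Notch target, was lower by at least 1, at 27.5 CPM in KO ND and 167 CPM in Apoe ND (-2.60). The related targets Hey1 and Hey2 had ratios of -0.12 and -0.58, and the receptor Notch3 one of 0.34.

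**Figure D2:**
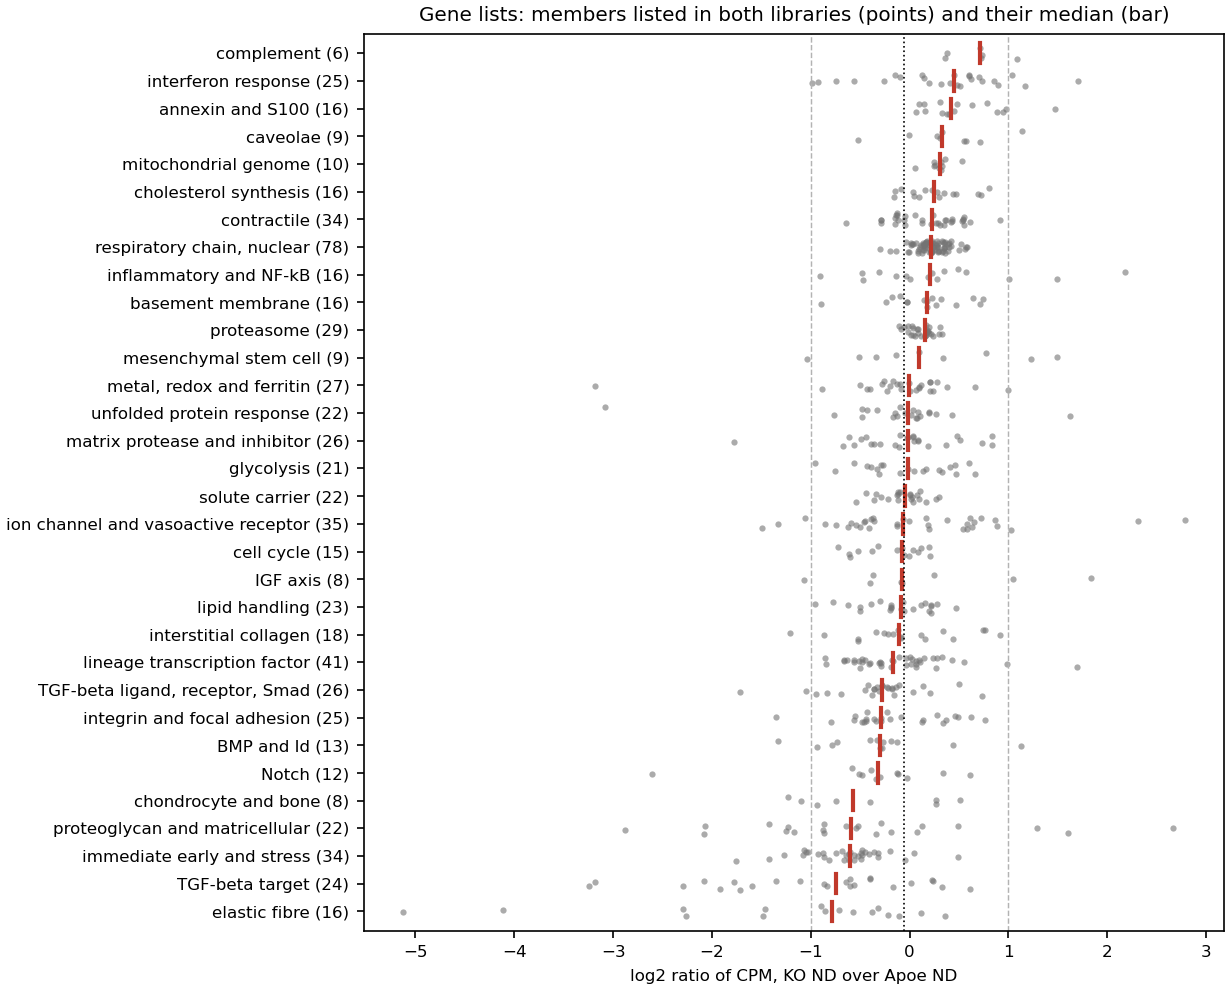
Log2 ratio of CPM, KO ND over Apoe ND, for the members of 32 gene lists that were listed in both libraries (points; number in brackets) with the median of each list (bar). The dotted line is the median of all 9608 genes (-0.05) and dashed lines mark 1 and -1; the elastic fibre list has the lowest median (-0.78) and the complement list the highest (0.72).

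Secreted matrix proteins outside the elastic fibre moved in both directions. Of 22 proteoglycan and matricellular genes listed in both, 7 were lower by at least 1 and 3 higher, with a median of -0.59. The 7 lower genes were Ccn2, Ccn5, Sparcl1, Vcan, Thbs2, Mgp and Aspn. Ccn5, a growth inhibitor of smooth muscle, stood at 25.7 CPM in KO ND and 189 CPM in Apoe ND (-2.88). Sparcl1, a counter-adhesive matrix protein, stood at 380 CPM in KO ND and 1598 CPM in Apoe ND (-2.07). Mgp, matrix Gla protein, an inhibitor of vessel calcification, stood at 1696 CPM in KO ND and 3982 CPM in Apoe ND (-1.23). The 3 higher genes were Itih4, Thbs1 and Tnc. Thbs1, thrombospondin 1, stood at 84.5 CPM in KO ND and 27.8 CPM in Apoe ND (1.6), while its relative Thbs2 went the other way (14.8 CPM in KO ND, 35.0 CPM in Apoe ND, -1.25). Tnc, tenascin C, stood at 51.6 CPM in KO ND and 21.2 CPM in Apoe ND (1.29).

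Collagens changed less than elastic fibre genes. Of 18 interstitial collagen and collagen-processing genes 1 was lower by at least 1, the lysyl hydroxylase Plod2 (39.8 CPM in KO ND, 91.9 CPM in Apoe ND, -1.21), and 0 were higher. Col1a1 stood at 666 CPM in KO ND and 954 CPM in Apoe ND (-0.52), Col1a2 at 738 CPM and 1348 CPM (-0.87), and Col3a1 at 905 CPM and 1085 CPM (-0.26). The collagen VI chains Col6a1, Col6a2 and Col6a3 lay above 0, at 0.34, 0.11 and 0.91. Of 16 basement membrane genes 0 passed 1 in either direction and 10 lay above 0, among them the laminin chains Lamc1 (0.74) and Lama5 (0.65). Of 26 matrix proteases and inhibitors 1 was lower by at least 1 and 0 higher, and Timp1 and Timp4, inhibitors of metalloproteinases, each had a ratio of 0.83.

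The most positive ratio among genes of at least 50 CPM belonged to Itih4, an inter-alpha-trypsin inhibitor heavy chain known as a plasma protein of the liver (chromosome 14, 30886476 to 30902353, plus strand). Itih4 stood at 2039 CPM in KO ND and 322 CPM in Apoe ND, a ratio of 2.66 (2.61 to 2.71). Its neighbour on the same strand, Mustn1, a small nuclear protein of skeletal muscle and bone (30879200 to 30881610), stood at 2091 CPM in KO ND and 493 CPM in Apoe ND, a ratio of 2.08 (2.04 to 2.12). The starts of the 2 genes lie 7276 bases apart. The next genes outward did not share the difference: Tmem110 stood at 141 CPM in KO ND and 125 CPM in Apoe ND (0.17), Sfmbt1 had a ratio of 0.15 and Spcs1 one of 0.23, while Itih3 was listed at 6.16 CPM in KO ND and at 0 in Apoe ND. The reference start regions of the pair are shown because these neighbours were both far higher in KO ND. They run from 250 bases before to 50 bases after the annotated start (RefSeq, GRCm38.p6, plus strand), at chr14:30886226-30886525 for Itih4 and chr14:30879007-30879306 for Mustn1.
Itih4: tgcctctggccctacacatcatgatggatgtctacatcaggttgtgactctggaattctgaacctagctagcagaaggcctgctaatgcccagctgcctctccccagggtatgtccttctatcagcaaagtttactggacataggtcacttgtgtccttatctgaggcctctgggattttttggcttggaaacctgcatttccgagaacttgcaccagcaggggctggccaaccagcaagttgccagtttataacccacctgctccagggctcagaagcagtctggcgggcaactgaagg
Mustn1: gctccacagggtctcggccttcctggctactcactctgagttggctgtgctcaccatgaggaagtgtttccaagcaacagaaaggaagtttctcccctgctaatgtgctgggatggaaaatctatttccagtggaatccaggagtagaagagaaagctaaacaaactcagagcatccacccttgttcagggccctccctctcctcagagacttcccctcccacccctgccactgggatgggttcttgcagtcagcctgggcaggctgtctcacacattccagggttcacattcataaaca
Neither window held GTCTAGAC or CAGACA, letters that Smad3 and Smad4 are known to bind, on either strand. Shorter stretches were not looked for, so the absence covers these letters only. In 17408 such windows CAGACA was found in 18.9% and GTCTAGAC in 0.195%. CAGACA stood in 21 of 91 windows of genes lower by at least 1 (23.1%), in 10 of 49 of genes higher by at least 1 (20.4%) and in 950 of 6662 of all genes listed in both libraries (14.3%).

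Interferon-induced genes mostly lay higher in KO ND. Of 25 listed in both, 3 were higher by at least 1 and 0 lower, 18 lay above 0, and the median was 0.45. A further 8 were listed in KO ND alone, among them Ifit3, Irf7, Stat2 and Iigp1, at 5.51 to 13.5 CPM, and Zbp1 alone was listed only in Apoe ND. These 8 were 24.2% of the 33 interferon genes listed in KO ND, against 4.65% (469 of 10077) of all genes listed there. They were seen in 5.15% to 12.2% of KO ND cells, with a median of 5.86%, near the 5% limit for listing in the library with more UMIs per cell. Ifitm3, a membrane protein that blocks virus entry, stood at 924 CPM in KO ND and 284 CPM in Apoe ND, a ratio of 1.70 (1.65 to 1.76). The others past 1 were Lgals3bp (33.3 CPM in KO ND, 14.8 CPM in Apoe ND, 1.17) and Psmb10, an immunoproteasome subunit (27.4 CPM and 13.3 CPM, 1.04). Bst2, tetherin, had a ratio of 0.86, Isg15, a ubiquitin-like modifier, 0.73, and B2m, the light chain of MHC class I, 0.62. Irf1 and Irgm1 lay below 0, at -0.99 and -0.93, so the list did not move as a block.

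The start regions of Ifitm3, Isg15 and Bst2 are shown because they carry the letters GAAA, any 2 bases and GAAA, the core of the interferon-stimulated response element; matches on either strand are in capitals. The windows are chr7:141010695-141010994, chr4:156200769-156201068 and chr8:71537423-71537722 (RefSeq, GRCm38.p6, each on the minus strand, written 5′ to 3′ along the gene).
Ifitm3: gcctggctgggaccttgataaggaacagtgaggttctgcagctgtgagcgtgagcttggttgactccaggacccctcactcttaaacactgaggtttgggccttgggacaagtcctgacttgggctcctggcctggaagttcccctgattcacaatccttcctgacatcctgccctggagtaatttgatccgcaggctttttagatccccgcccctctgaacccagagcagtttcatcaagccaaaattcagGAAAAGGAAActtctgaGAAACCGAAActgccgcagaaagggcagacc
Isg15: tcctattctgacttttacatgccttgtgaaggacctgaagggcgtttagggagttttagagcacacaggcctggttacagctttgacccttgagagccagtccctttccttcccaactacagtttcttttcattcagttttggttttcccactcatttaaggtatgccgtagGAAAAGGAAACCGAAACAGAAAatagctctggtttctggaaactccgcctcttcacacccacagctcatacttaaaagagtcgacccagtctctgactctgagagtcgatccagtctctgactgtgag
Bst2: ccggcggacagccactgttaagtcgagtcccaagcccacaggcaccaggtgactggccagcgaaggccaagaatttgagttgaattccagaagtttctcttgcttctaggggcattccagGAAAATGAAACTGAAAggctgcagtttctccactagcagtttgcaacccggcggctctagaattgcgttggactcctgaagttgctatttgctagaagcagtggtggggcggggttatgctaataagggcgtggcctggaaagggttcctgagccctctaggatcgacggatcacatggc
Of the 25 interferon genes listed in both libraries 20 had a window, and 8 of these (40%) held this core, against 2.54% of the 6662 windows of all genes listed in both and 3.22% of all 17408. The 8 were Ifitm3, Bst2, Isg15, B2m, Gbp2, Psme1, Ifitm2 and Irgm1, with ratios from 1.70 to -0.93. Of the 49 windows of genes higher by at least 1 only 2 held it (4.08%). A match describes letters in a window and does not show a bound site.

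Complement genes lay higher in KO ND, while inflammatory genes were mixed. All 6 complement genes listed in both lay above 0, with a median of 0.72, and 1 passed 1: Serping1, the C1 inhibitor, at 219 CPM in KO ND and 103 CPM in Apoe ND (1.09). Of 16 inflammatory and NF-kB genes listed in both, 3 were higher by at least 1 and 0 lower, 10 lay above 0 and 6 below, and the median was 0.21. Cx3cl1, fractalkine, a membrane chemokine for monocytes, stood at 29.6 CPM in KO ND and 6.51 CPM in Apoe ND (2.18). Vcam1, an adhesion molecule for leukocytes, stood at 91.0 CPM in KO ND and 32.3 CPM in Apoe ND (1.5). Cxcl12, a chemokine of stromal cells, stood at 336 CPM in KO ND and 168 CPM in Apoe ND (1.00). The NF-kB inhibitor gene Nfkbia lay below 0 (-0.48).

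Receptors and channels that set vessel tone changed one by one. Of 35 listed in both, 3 were higher by at least 1 and 3 lower, with a median of -0.06. Adra1b, the alpha-1B adrenergic receptor, stood at 43.3 CPM in KO ND and 6.29 CPM in Apoe ND (2.78), Kcnk3, a two-pore potassium channel, at 32.7 CPM and 6.59 CPM (2.31), and P2rx1, an ATP-gated channel, at 32.2 CPM and 15.8 CPM (1.03). Lower were Rgs5 (105 CPM in KO ND, 294 CPM in Apoe ND, -1.49), Rgs4 (123 CPM and 256 CPM, -1.06), both regulators of G protein signalling, and the serotonin receptor Htr1b (9.48 CPM and 23.9 CPM, -1.34). In Apoe ND, Adra1b and Kcnk3 were seen in 5.37% and 5.16% of cells, just above the share below which a gene is listed at 0.

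The contractile genes had a median ratio of 0.23. All 34 were listed in both libraries, and 21 lay above 0, against 43.2% of all genes. In either direction 0 passed 1, but only 2.43% of all genes did, so that count says little. Acta2, smooth muscle actin, stood at 24610 CPM in KO ND and 18220 CPM in Apoe ND (0.43), Myh11, smooth muscle myosin, at 2606 CPM and 2244 CPM (0.22), and Cnn1, calponin, at 2929 CPM and 2183 CPM (0.42). Actg2, the enteric actin, had the highest ratio of the list, 0.92, at 1014 CPM in KO ND and 536 CPM in Apoe ND. Myocd, the coactivator that drives these genes with Srf, had a ratio of 0.55 and Srf one of 0.24. Pdlim7 lay lowest, at -0.65. Caveolae genes resembled them, with 7 of 9 above 0 and Cav1, caveolin 1, past 1 (1581 CPM in KO ND, 717 CPM in Apoe ND, 1.14).

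Respiratory chain genes showed small but broad differences. Of 78 nuclear respiratory chain genes listed in both, 72 lay above 0 and 0 passed 1, with a median of 0.22. The 10 mitochondrial genome transcripts listed in both lay above 0 (median 0.31). Of 21 glycolysis genes, 10 lay above 0 and 11 below, 0 passed 1, and the median was -0.02. Another, mt-Co3, was listed at 0 in KO ND and at 1184 CPM in Apoe ND, so genes listed at 0 are not all low. All 16 annexin, S100 and galectin genes lay above 0 (median 0.42), and S100a4 passed 1, at 362 CPM in KO ND and 131 CPM in Apoe ND (1.47). S100a6 (4309 CPM in KO ND, 2328 CPM in Apoe ND) and Lgals1, galectin 1 (4930 CPM and 2855 CPM), had ratios of 0.89 and 0.79. Cholesterol synthesis genes had a median of 0.25, with 13 of 16 above 0 and 0 past 1. Msmo1 and Hsd17b7 stood highest, at 0.81 and 0.73. A further 4 (Mvd, Dhcr7, Tm7sf2 and Stard4) were listed in KO ND alone, where 4.65% of all listed genes were at 0 in Apoe ND. These 4 stood at 5.998 to 8.267 CPM, levels near the listing limit, in the library with more UMIs per cell.

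Early response genes were lower in KO ND almost without exception. Of 34 immediate early and stress genes 32 lay below 0, 7 were lower by at least 1 and 0 higher, with a median of -0.61. The 7 were Egr2 (-1.75), Nr4a1 (-1.42), Nr4a2 (-1.27), Gadd45b (-1.08), Socs3 (-1.07), Dnajb1 (-1.05) and Fos (-1.02). Fos, a subunit of the AP-1 factor, stood at 1822 CPM in KO ND and 3707 CPM in Apoe ND, and Nr4a1, a nuclear receptor, at 333 CPM and 890 CPM. Genes of this kind are known to be induced by tissue digestion, and its part in the other differences was not tested. Nupr1, a stress-induced chromatin protein, stood at 245 CPM in KO ND and 2073 CPM in Apoe ND (-3.08), while 20 of the other 21 unfolded protein response genes did not pass 1 and their list had a median of -0.02. The exception was Sdf2l1, an endoplasmic reticulum chaperone partner (23.6 CPM in KO ND, 7.63 CPM in Apoe ND, 1.63).

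Further genes past 1 are given by list, to be read against 2.43% of all genes past 1 in either direction. Igfbp2, a binding protein of insulin-like growth factors, stood at 236 CPM in KO ND and 66.2 CPM in Apoe ND (1.84), and Igfbp4 at 331 CPM and 160 CPM (1.05). Irs2, an adaptor of the insulin receptor, was lower (35.5 CPM in KO ND, 74.2 CPM in Apoe ND, -1.06). Of 41 lineage transcription factors 1 passed, the homeobox gene Prrx2 (91.0 CPM in KO ND, 28.1 CPM in Apoe ND, 1.70), a count near the share of all genes. Zeb2, a repressor of epithelial genes, stood at 0.99. Of 9 mesenchymal stem cell markers Vcam1 and Cd44 (116 CPM in KO ND, 49.5 CPM in Apoe ND, 1.23) were higher and Alcam (58.9 CPM and 121 CPM, -1.04) lower. Of 8 chondrocyte and bone genes listed in both, Mgp and Enpp1, which makes the mineralisation inhibitor pyrophosphate (8.67 CPM in KO ND, 18.6 CPM in Apoe ND, -1.10), were lower, and Sox9, the cartilage factor, had a ratio of 0.27. Sncg, gamma-synuclein, reached 319 CPM in KO ND and 53.7 CPM in Apoe ND (2.57), and Gja1, connexin 43 of gap junctions, 273 CPM and 94.4 CPM (1.53). The remaining genes of the upper 15 were Fxyd5 (1.74), Rn7sk (1.66; a small nuclear RNA with many genomic copies, so uncertain), Ctxn1 (1.56) and Plvap (1.5). The remaining genes of the lower 15 were Gxylt2 (-2.91), Mylk4 (-2.34), Tcap (-2.24), Crispld2 (-1.94) and Fibin (-1.91).

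Some genes were listed on 1 side only. In KO ND these included Tmem176b (60.8 CPM, 35.0% of cells), Mmp3, stromelysin 1 (46.9 CPM, 8.25% of cells), the prostaglandin transporter Slco2a1 (40.9 CPM), Sdsl (32.6 CPM) and Lum, lumican (29.7 CPM, 5.32% of cells), each listed at 0 in Apoe ND. In Apoe ND they included Bmp3, Stmn1, the microtubule destabiliser stathmin (44.7 CPM, 29.4% of cells), Dapk2 (24.8 CPM), Bmp4 and Art4 (18.3 CPM), each listed at 0 in KO ND. The levels of Mmp3 and Lum rested on few cells: 2 cells held 68.7% of the 579 Mmp3 UMIs of KO ND, and 2 cells held 45.0% of its 367 Lum UMIs. Among genes with a ratio, 5 cells held at least 50% of the Vcam1 UMIs of Apoe ND (21 cells in KO ND), and 9 cells held at least 50% of its Thbs1 UMIs (28 cells in KO ND), so these ratios rest on few cells too.

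The reduction of Mfap4, Fbln5 and Eln extended over nearly the whole KO ND library. With every cell thinned to 3000 UMIs (1125 KO ND and 1411 Apoe ND cells were deep enough, 2 and 4 were not), Mfap4 was seen in 15.2% of KO ND cells (13.2 to 17.4) and 98.2% of Apoe ND cells (97.3 to 98.8). Fbln5 was seen in 14.6% of KO ND cells and 92.4% of Apoe ND cells, and Eln in 67.6% and 99.0%. Not every elastic fibre gene did so, as Fbn1 was seen in 27.9% of KO ND cells and 31.0% of Apoe ND cells. No other cell type was identified in numbers to gauge free RNA in the droplets, so low shares in KO ND were not read as expression. Without thinning, Mfap4 was seen in 36.8% of KO ND cells and 99.7% of Apoe ND cells. The 5 genes with the most negative ratio (Mfap4, Fbln5, Pmepa1, Nox4 and Nupr1) together took a median of 3.13 UMIs per 10000 in KO ND cells and 57.7 in Apoe ND cells. Only 5 of 1127 KO ND cells (0.444%, 0.144% to 1.03%) reached the 5th percentile of Apoe ND cells, 33.0 per 10000. These genes were picked for their library ratio, so the sum describes how the difference is spread over cells.

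The shares of cells among the higher genes ran over a wide range. Itih4 and Mustn1 were seen in 95.8% and 94.3% of thinned KO ND cells, against 50.9% and 58.5% of Apoe ND cells, and Ifitm3 in 88.4% and 53.2%. For Itih4, 98.9% of KO ND cells lay above the median of Apoe ND cells, so the difference covered the population. In between, Gja1 was seen in 51.4% of thinned KO ND cells and 23.2% of Apoe ND cells, S100a4 in 47.8% and 28.8%, Sncg in 43.5% and 11.3%, and Plvap in 22.1% and 9.43%. Igfbp2, Thbs1, Vcam1 and Tnc were seen in 11.6% to 21.2% of thinned KO ND cells, against 3.54% to 8.93% of Apoe ND cells, and the median cell of both libraries had 0 UMIs of each. Across KO ND cells the ranks of Itih4 and Mustn1 ran against each other (Spearman's rho = -0.33 over 1125 thinned cells), and Itih4 also ran against S100a6 (-0.26) and Lgals1 (-0.25) and with Ogn (0.22). In Apoe ND the same 4 values were -0.05, -0.08, -0.02 and 0.09, and in KO 1M they were -0.10, -0.10, -0.07 and 0.12. For Itih4 and Clu, rho was 0.168 in KO ND, 0.184 in KO 1M and 0.053 in Apoe ND. For Itih4 and Acta2 it was 0.084, 0.105 and 0.125. These partners of Itih4 were chosen after values were seen. The cells of each value share a library, and the level of Itih4 differed between the genotypes.

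**Figure D3:**
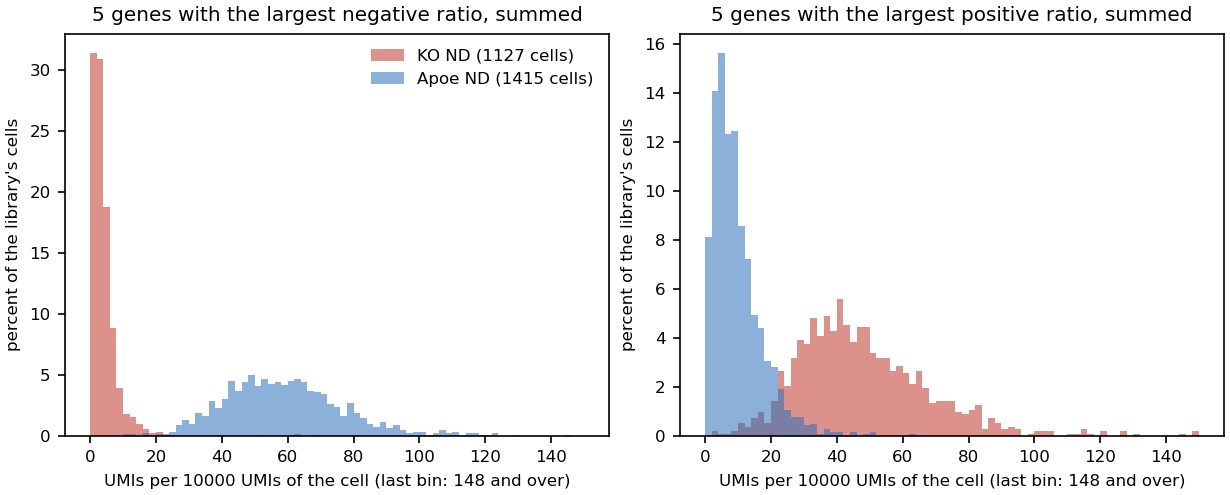
UMIs per 10000 UMIs of a cell, summed over the 5 genes with the most negative (left) and the 5 with the most positive (right) ratio, as percent of the cells of KO ND and Apoe ND. Median sums were 3.13 in KO ND and 57.7 in Apoe ND on the left, and 44.5 and 7.96 on the right, where 99.6% of KO ND cells lay above the Apoe ND median.

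A small group of cells carried fibroblast-type matrix genes in both libraries. Cells with 2 or more UMIs of Dcn, decorin, a proteoglycan that fibroblasts make in abundance, numbered 29 of 1127 in KO ND (2.57%, 1.73% to 3.67%) and 54 of 1415 in Apoe ND (3.82%, 2.88% to 4.95%). This group was chosen after values were seen. Its median depth was 12671 UMIs in KO ND and 9061 UMIs in Apoe ND. In KO ND these 29 cells held 81.5% of the library's Lum UMIs, at 792 CPM against 5.69 CPM in the other cells, and they also stood higher for Col14a1 (172 CPM against 38.5 CPM in the other cells). In Apoe ND, where Lum is listed at 0, Col14a1 stood at 177 CPM in the Dcn cells and 40.0 CPM in the others. Both groups held smooth muscle transcripts, with Acta2, Myh11 and Tagln at lower levels than in the other cells. In KO ND, Acta2 stood at 16040 CPM in the Dcn cells and 24880 CPM in the others, and Myh11 at 1711 CPM and 2634 CPM. In Apoe ND, Acta2 stood at 15740 CPM in the Dcn cells and 18310 CPM in the others, and Myh11 at 1883 CPM and 2258 CPM. Des was not lower in the Dcn cells, at 318 CPM against 294 CPM in KO ND and 729 CPM against 226 CPM in Apoe ND. Cnn1 was lower in KO ND (1960 CPM against 2959 CPM) but not in Apoe ND (2216 CPM against 2181 CPM).

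Within KO ND the mean levels of elastic fibre genes were higher in the Dcn cells, but 2 of these cells held most of the UMIs. Eln stood at 2035 CPM (1893 to 2184) in the Dcn cells of KO ND and 672 CPM in its other cells, Mfap4 at 209 CPM (166 to 261) and 57.4 CPM, and Fbln5 at 252 CPM (204 to 308) and 56.4 CPM. Of the UMIs in the 29 cells, 2 cells held 79.2% for Eln, 72.2% for Mfap4 and 52.6% for Fbln5, and Eln was seen in 86.2% of the Dcn cells and 91.2% of the others. In Apoe ND the Dcn cells did not stand higher for Eln (2833 CPM, against 3460 CPM in the other cells) or Mfap4 (1801 CPM, against 2183 CPM), while Fbln5 stood at 1437 CPM against 1066 CPM. Of the 5 KO ND cells that reached the Apoe ND range for the 5 summed genes, 2 were Dcn cells. With Dcn cells left out of both libraries, 86 genes were higher and 155 lower by at least 1 (an alternative chosen after seeing the data).

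The ND differences were then followed into the high fat diet, in libraries that the ND comparison does not share. Of the 150 genes lower on ND, 139 were listed in both 1M libraries and 126 of these (90.6%) lay below 0 there, 57 of them past 1, against 46.8% and 0.899% of all genes. At 2M 122 of 130 (93.8%) lay below 0 and 75 passed 1, against 52.7% and 2.50% of all genes. At 4M 74 of 104 (71.2%) lay below 0 and 58 passed 1, against 62.5% and 18.2% of all genes, and 43 further genes were listed at 0 in KO 4M and above 0 in Apoe 4M. These 43 were 29.3% of the 147 such genes listed in Apoe 4M, against 9.04% (857 of 9481) of all genes listed there. Fbln5 stood at 62.4, 144, 180 and 97.0 CPM in the KO libraries from ND to 4M, against 1080, 928, 938 and 979 CPM in the Apoe libraries. Mfap4 stood at 62.1, 327 and 128 CPM in KO on ND, 1M and 2M and was listed at 0 in KO 4M, against 2168, 1892, 2495 and 1340 CPM in Apoe. Sparcl1 and Nupr1 also stayed past 1 at every time, with Nupr1 at 245, 457, 899 and 712 CPM in KO, against 2073, 2043, 3406 and 2244 CPM in Apoe. Tcap, a sarcomere protein, did not follow: its ratios were -2.24, -0.40, 0.28 and -4.74.

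The genes higher on ND kept their direction to 2M and lost it at 4M. Of 83, 75 were listed in both 1M libraries and 68 (90.7%) lay above 0, 35 past 1, against 53.2% and 0.866% of all genes. At 2M 66 of 69 (95.7%) lay above 0 and 36 passed 1, against 47.3% and 1.31% of all genes. At 4M 22 of 62 (35.5%) lay above 0, against 37.5% of all genes, and 24 were lower by at least 1, against 18.2% of all genes. Itih4 stood at 2039, 939, 1448 and 49.9 CPM in KO from ND to 4M, against 322, 299, 698 and 416 CPM in Apoe, so its ratio was 2.66, 1.65, 1.05 and -3.06. Mustn1 followed with ratios of 2.08, 1.75, 1.58 and -1.69, Ifitm3 with 1.70, 1.26, 1.49 and -1.25, and Sncg with 2.57, 1.90, 2.98 and -1.50. Fxyd5 and Thbs1 stayed higher at 4M (1.5 and 1.25). The 4M pair differed by at least 1 in 25.2% of genes, against 2.43% on ND, 1.77% at 1M and 3.81% at 2M.

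**Figure D4:**
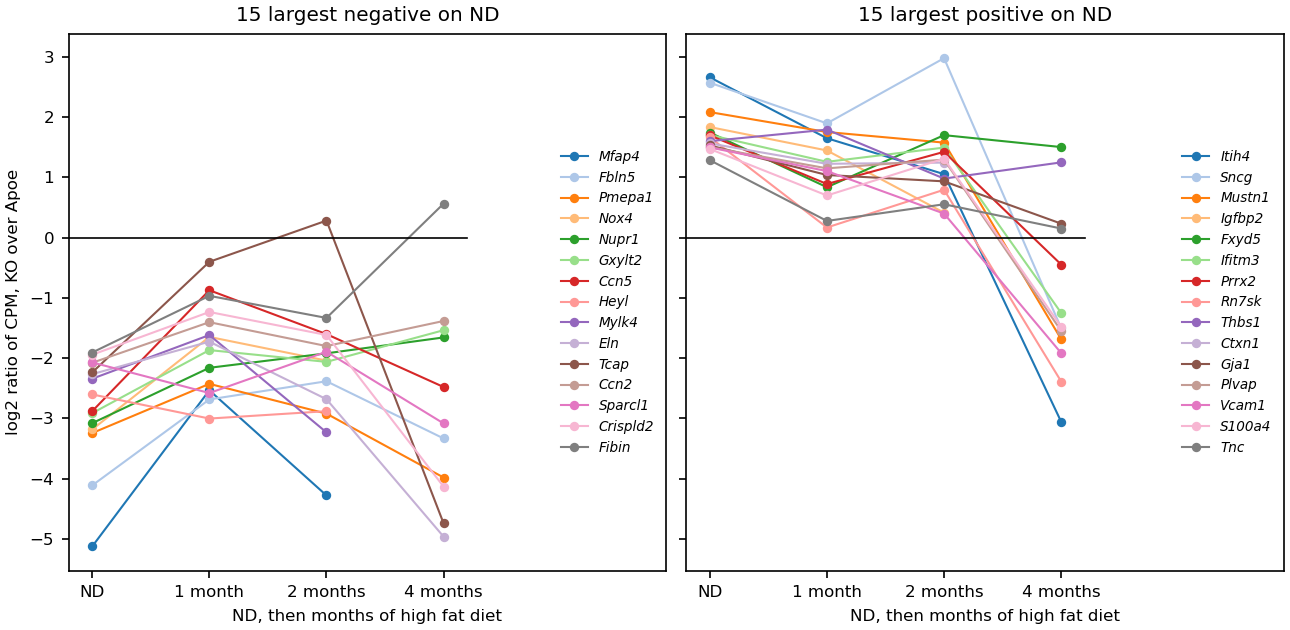
Log2 ratio of CPM, KO over Apoe, on ND and after 1, 2 and 4 months of high fat diet for the 15 genes with the most negative and the 15 with the most positive ratio on ND (1 library per genotype and diet; no point where a gene is listed at 0). Most lower genes stay below 0 at 4 months, whereas Itih4 (-3.06), Mustn1 (-1.69), Sncg (-1.5) and Ifitm3 (-1.25) are below 0 there.

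The same contrast was tested over the 6 high fat diet libraries alone, on mean log2 values per library with diet as a factor (limma). A gene listed at 0 in a library, or absent from its values, entered as 0, such as Mfap4 in KO 4M. Of 9253 genes 1 (0.0108%) was lower and 0 were higher at an adjusted p of 0.05. The gene was Eln, which fell by 2.82 ± 0.04 (SE, 3 KO and 3 Apoe libraries; limma, Benjamini-Hochberg adjusted p = 0.0289). Mean log2 values of Eln were 1.05, 0.909 and 0.186 in KO 1M, 2M and 4M and 3.79, 3.76 and 3.07 in Apoe 1M, 2M and 4M, which did not overlap. The call was lost (0 genes) without the 1M, the 2M or the 4M pair. Without adjustment, 444 genes (4.80%) were lower and 261 (2.82%) higher at p under 0.05, and these counts depended on the pairs used. They were 174 and 112 without the 1M pair, 189 and 34 without the 2M pair, and 914 and 733 without the 4M pair. Of the 147 tested genes lower on ND, 134 had a negative effect, against 41.4% of all genes, and 83 an unadjusted p under 0.05 in that direction (56.5%). Of the 81 tested genes higher on ND, 70 had a positive effect, against 58.5% of all genes, and 14 an unadjusted p under 0.05 (17.3%). Of the 150 genes lower on ND, 43 were listed at 0 in KO 4M, and effects of such genes rest in part on that 0. Among the next genes by p were Ccn5 (-0.60 ± 0.02), with an adjusted p of 0.167 (limma), and Pdlim1, Mfap5, Fbln5 and Mylk4, each with 0.205.

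Whether the genotype difference on ND departs from that on the high fat diet was tested on the 4 differences of mean log2 values, ND against the other 3. Listings at 0 entered as 0 here too. None of the 9253 genes (0) reached an adjusted p of 0.05 with limma, and 88 (0.951%) were higher on ND and 15 (0.162%) lower at an unadjusted p under 0.05. With 0 genes at the adjusted threshold each time, the unadjusted counts were 27 higher and 21 lower without the 1M pair, 41 and 11 without the 2M pair, and 445 and 63 without the 4M pair. Of 81 tested genes higher on ND 68 had a larger difference on ND than on the high fat diet, against 49.1% of all genes, 10 at an unadjusted p under 0.05, and the lowest adjusted p was 0.170 (limma). Of 147 tested genes lower on ND 110 had a more negative difference on ND, against 50.9% of all genes, 4 at an unadjusted p under 0.05, with a lowest adjusted p of 0.999 (limma). Since genes entered these counts for being far from 0 on ND, a larger difference there is partly built in.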

How the data were processed

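Single-cell RNA libraries of sorted aortic smooth muscle cells were analysed, 1 per genotype and diet. Per the submitters' processing notes, UMI-tools, STAR, featureCounts and Subread 1.6.0 were used with build GRCm38. The deposited values are log2(x + 1) of UMIs that the authors scaled per cell. UMI counts were recovered from the deposited log2 values by dividing each back-transformed value by its cell's smallest one (100% of entries whole within 0.01). Genes seen in under 5% of a library's cells are listed at 0 in the tables. GENCODE vM21 gave symbols for 10362 of the 10367 genes with ND values.

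UMIs were summed per library and scaled to 1000000 (CPM). The log2 ratio of KO ND over Apoe ND was taken for genes listed in both, with exact conditional binomial intervals and a threshold of 1. Precision is limited by 12337547 UMIs in KO ND and 13362860 UMIs in Apoe ND. Poisson, binomial and ratio intervals (95%) cover counting error only. Cells were thinned to 3000 UMIs for shares of cells. No doublet caller was run, and the sources used here do not say how the tables' cells were filtered. Fits across libraries used limma 3.58.1 on mean log2 values with Benjamini-Hochberg adjustment. A gene was kept where its mean share of cells over the libraries reached 5%, and a listing at 0 entered as 0. In simulated data 200 of 9253 genes, drawn at random, were shifted by 1 with independent noise. The shift was equal in every KO library for the high fat diet fit, which recovered 77% with 11 false calls. For the fit of ND against high fat diet it was in KO ND alone, and 63% were recovered with 6 false calls. At a shift of 0.5 the shares were 71% and 0%. In the real data Mfap4 (-3.12) had an adjusted p of 0.205 in the high fat diet fit (limma). The simulated shares therefore do not carry over to the real genes. Labels do not say whether libraries come from separate animals. With 1 library per genotype and diet, p-values measure how the KO minus Apoe difference varied between the high fat diet pairs. That variation mixes change with time on the diet and spread between libraries, which may be technical. Python 3.11.15, numpy 2.4.6, scipy 1.17.1, pandas 2.3.3 and R 4.3.3 were used.

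Named genes are the 15 most positive and 15 most negative ratios among genes of at least 50 CPM in the higher library, the 5 of highest CPM listed on 1 side only, each way, and the list members past 1 or highest in CPM. Predicted, Rik, pseudogene and mitochondrial genes were left out of the first 2 of these groups (19 genes). Other list members named were chosen after their values were seen. The comparison and its lists were chosen with earlier results of these data known. Values of some list members are not reported here.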

Additional observations from a re-analysis of the deposited data

How the results depend on the processing

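The counts of 83 genes higher and 150 lower stayed within 1.5 times under each of 10 alternatives of scaling, pseudocount, filter, cell weighting, thinning and cells left out. An 11th, leaving out cells with 3 markers of another type, removed 0 cells because at most 1 marker of each of those types is listed, so it shows nothing, although its values are among those counted next. Of 72 single genes tried, 58 stayed past 1 under every setting, 33 gene and setting pairs lost the threshold and 0 reversed. Each recomputed list median was compared with an interval set by the spread of ratios among the list's members, not by counting error. This interval ran from -2.267 to -0.2169 for the elastic fibre list, but from 0.1755 to 0.2644 for the nuclear respiratory chain. For lists with a wide interval, a median inside it therefore says little about stability. Of 320 list medians recomputed, 309 lay inside their interval. The others moved further from 0: the respiratory chain median to 0.27 with trimmed-mean scaling, 0.27 with median ratios and 0.30 with the authors' scaled values; the proteasome median to 0.20, 0.21 and 0.22 under the same 3 settings; and the mitochondrial genome median to 0.36, 0.36 and 0.44, and to 0.40 with per-cell means and 0.40 with thinned cells. Shares of cells followed depth: unthinned and at 5000 UMIs, Mfap4 was seen in 36.8% and 22.5% of KO ND cells and 99.7% and 99.5% of Apoe ND cells, and Itih4 in 99.65% and 98.7% of KO ND cells and 78.7% and 64.7% of Apoe ND cells. In the high fat diet fit the 1 lower gene became 0 with a variance trend and without a filter. The count was also 0 with log2(CPM + 1), where listings at 0 were set to missing. With any 1 diet pair left out it was 0 as well (range 0 to 0). With genes listed in every library it stayed at 1, and the cause was not tested. With a variance trend, 1 gene was higher and 3 lower on ND than on the high fat diet, where 0 were called otherwise. Both fits across libraries already match KO and Apoe by diet; no replicate numbers exist to pair by, since each group holds 1 sample. Genes under 5% of cells cannot be followed in these tables.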

Other observations

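Some genes were listed in every library of a genotype and at 0 in every library of the other. Pparg, a nuclear receptor of fat cell differentiation, was listed in all 4 KO libraries, at 24.1, 8.35, 13.2 and 28.1 CPM from ND to 4M, and at 0 in all 4 Apoe libraries. In all, 13 (11 protein-coding) of the 10077 genes listed in KO ND showed this pattern. On ND alone, 4.65% of those 10077 genes were at 0 in Apoe ND. Thy1, a surface glycoprotein of fibroblasts and T cells, was among the 13, at 8.19, 9.27, 20.8 and 18.4 CPM. So was Nr1h3, the liver X receptor alpha, at 5.27, 6.43, 8.44 and 6.45 CPM. The opposite pattern held for 16 (11 protein-coding) of the 9898 genes listed in Apoe ND, of which 2.93% were at 0 in KO ND. Among the 16 was Stmn1, at 44.7, 44.4, 75.1 and 16.4 CPM in the Apoe libraries. These genes were picked after their values were seen, and those listed at only a few CPM lie near the listing limit. A listing at 0 need not mean a low level, as for mt-Co3 (0 in KO ND, 1184 CPM in Apoe ND).

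On chromosome 9, 137 genes within 10 Mb of Tgfbr2 were listed in both ND libraries. Their log2 ratios ran from -0.95 to 0.99 with a median of -0.06, and 0 passed 1, against 2.43% of all genes listed in both.

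Of 16 gene pairs whose ranks were compared across cells, several differed between the libraries. Spearman's rho of Eln and Mfap4 was 0.03 over 1125 thinned KO ND cells and 0.26 over 1411 Apoe ND cells. For Ccn2 and Fos it was 0.10 in KO ND and 0.32 in Apoe ND, and for Fos and Egr1 0.39 and 0.50. For Acta2 and Myh11 it was 0.20 in both, and for Eln and Ccn2 0.08 in KO ND and 0.06 in Apoe ND. The cells of each value share a library, and Eln, Mfap4, Ccn2 and Fos had fewer UMIs in KO ND.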
